A study of Mus musculus with 12 samples.

Results

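The 9 genes described here make, release, take up or burn glucose in the liver, or govern those steps. They are G6pc, Pck1 and Fbp1 of glucose production, the transporter Slc2a2, Pklr, Pfkfb1 and Pfkfb3 of glycolysis, and the regulators Ppargc1a and Irs2. A gene's probe sets were those that the array's annotation gives to its symbol alone, which yielded 17 of the 34945 probe sets that name 1 gene. They cover 8 of the 9 members, out of 18193 genes in all, and each of the 8 passed the filter on dim probe sets. No probe set was listed for Pfkfb1, the liver form of the enzyme that sets fructose bisphosphate signalling, which is not analysed here.

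The livers came from female mice, 8 to 12 weeks old, and their RNA was read on 12 single-colour oligonucleotide arrays. All mice, controls included, carried floxed alleles of Yap1, which encodes the growth co-activator YAP. In the knockouts (KO) an AAV8 virus expressed Cre from TBG, a promoter active in hepatocytes, so other liver cells keep the gene. The wild-type controls (WT) received an AAV8-TBG virus with GFP instead. TCPOBOP, which activates the receptor CAR and makes mouse hepatocytes divide, was given by gavage at 3 mg/kg 10 days after the virus, and day 0 livers had only the virus. Each genotype has 2 arrays at day 0 and 3 at day 2, with a single pool of RNA hybridised for day 1. The labels do not say whether replicates are single animals, so p-values measure the spread between these arrays. No mouse without TCPOBOP was sampled after day 0, so drug, gavage and elapsed time cannot be told apart.

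A fasting liver makes glucose from lactate and amino acids. Pck1 commits carbon to that route, Fbp1 drives it past the point where glycolysis burns sugar, and G6pc frees the finished glucose for export. Glucagon, through cAMP and the co-activator encoded by Ppargc1a, raises G6pc and Pck1, whereas insulin, through Irs2 and the exclusion of FOXO1 from the nucleus, lowers them. CAR agonists are known to lower G6pc and Pck1 in mouse liver.

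Signals are MAS5 intensities in linear units. Array medians lay between 231.6 and 277. Yap1 read 449.6 to 796.7 on the 6 KO arrays and 999.2 to 1306 on the 6 WT arrays; where in the gene the probes lie was not tested. Signals spanned less on KO day 2 arrays, topping out at 48217 to 67457 against 103216 to 116918 on WT day 2 arrays. The 152 genes with mean log2 signals over 14 had a median KO minus WT difference of -0.41 at day 2 and 0.21 at day 0. Between day 0 and day 2 their median difference was -0.42 in KO and 0.16 in WT. KO livers express Cre from the virus, and whether its RNA adds to the arrays' cre spike-in control was not tested. That control read 16680 to 21570 at KO day 2 and 44680 to 49640 at WT day 2. At day 0 it read 41140 and 37250 in KO, and 27260 and 27580 in WT. Values after quantile normalization, which gives all arrays 1 distribution, are therefore set beside many, but not all, of those of abundant genes. In what follows, differences are on the scale of log2(signal + 16), ± after a difference is limma's standard error, and an adjusted p comes from limma with Benjamini-Hochberg adjustment over 14102 genes, called under 0.05. Comparisons that use the same day 0 or day 2 arrays are not independent of each other.

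G6pc, the catalytic subunit of the phosphatase that releases glucose, was the member with the largest difference before TCPOBOP. It read 16744 and 19908 on the KO day 0 arrays, against 3281 and 2979 on the WT day 0 arrays. Both KO arrays thus lay far above both WT arrays, at 5.81 times their level (2.54 ± 0.33, adjusted p 0.0196, and 2.47 after quantile normalization, adjusted p 0.0205). By day 1 the pools of the 2 genotypes stood side by side, at 5262 in KO and 5379 in WT. By day 2 G6pc read 2848, 2389 and 3249.6 on KO arrays, against 2007, 1001 and 2608 on WT arrays. These ranges overlapped, and the difference did not pass the test (0.69 ± 0.27, adjusted p 0.125). In order of mean signal the groups ran from KO day 0 (18330 ± 2237 SD, n = 2) through the WT and KO day 1 pools to WT day 0 (3130 ± 213.5 SD, n = 2), KO day 2 (2829 ± 430.6 SD, n = 3) and WT day 2 (1872 ± 812.1 SD, n = 3). KO day 2 overlapped both WT day 0 and WT day 2, while WT day 0 and WT day 2 did not overlap each other.

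Within KO livers G6pc fell 6.47-fold between day 0 and day 2 (-2.70 ± 0.30, adjusted p 0.000213), a call kept in all 18 alternatives tried. In WT livers the day 2 arrays also lay below the day 0 arrays, but the difference was not called (-0.84 ± 0.30, adjusted p 0.0943; -0.94 and 0.0607 after quantile normalization). Without WT day 2 replicate 3 it was (-1.13, adjusted p 0.0282), and so it was after cyclic loess normalization (-0.99, adjusted p 0.0487) and with the replicate number as a block (-1.04, adjusted p 0.0287). The KO change was more negative than the WT change by 1.85 ± 0.43 as a log2 difference (-1.85, adjusted p 0.0418). That last call was kept with 1 of 10 single arrays left out, WT day 2 replicate 2 (-2.25, adjusted p 0.0175); without each of the other 9 in turn it ran from -1.98 to -1.56 with adjusted p from 0.0581 to 0.14, and after quantile normalization it was -1.65 (adjusted p 0.0677). The day 0 call was likewise lost without WT day 0 replicate 1 (2.61, adjusted p 0.0647), WT day 0 replicate 2 (2.47, 0.125) or KO day 0 replicate 2 (2.42, 0.0577), in each case with the size kept.

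**Figure D1:**
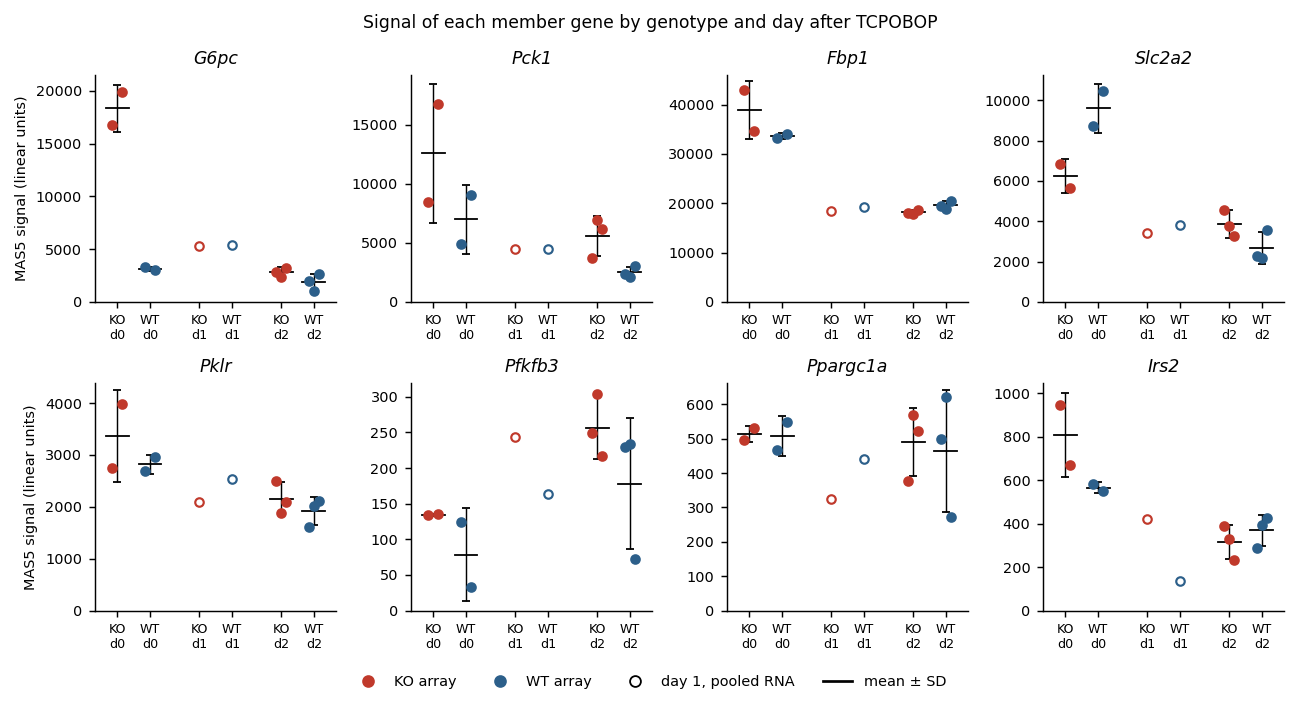
MAS5 signal in linear units (vertical axes, each gene on its own scale from 0) of the probe set that represents each of the 8 measured members, by genotype and day after TCPOBOP (d0, d1, d2). Filled points are arrays, open points are the day 1 pools of 1 array each, and bars are mean ± SD. G6pc stands at 16744 and 19908 on the KO day 0 arrays and at 5379 or less on all others, while Fbp1 is lower from day 1 on in both genotypes.

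The 250 bases upstream of the annotated starts of G6pc, Pck1 and Irs2, 3 members known to answer to insulin or cAMP, are shown to make their control regions concrete (RefSeq, GRCm38.p6, 5′ to 3′ on the gene's strand). Capitals mark matches, on either strand, to the insulin response letters TGTTTTG or TGTTTAC, the cAMP response core TGACG, or the E-box CACGTG. They cover G6pc at chr11:101367466-101367715 on the plus strand, Pck1 at chr2:173152823-173153072 on the plus strand and Irs2 at chr8:11008930-11009179 on the minus strand.
G6pc: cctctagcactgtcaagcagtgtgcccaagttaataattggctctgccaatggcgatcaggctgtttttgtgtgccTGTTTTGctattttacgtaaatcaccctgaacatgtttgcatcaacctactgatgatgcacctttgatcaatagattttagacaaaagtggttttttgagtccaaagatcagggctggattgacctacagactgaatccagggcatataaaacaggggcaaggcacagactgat
Pck1: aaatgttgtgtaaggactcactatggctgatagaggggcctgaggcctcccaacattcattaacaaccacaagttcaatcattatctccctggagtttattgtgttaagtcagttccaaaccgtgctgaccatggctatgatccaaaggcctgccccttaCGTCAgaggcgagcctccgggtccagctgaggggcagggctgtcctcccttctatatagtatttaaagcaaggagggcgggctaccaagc
Irs2: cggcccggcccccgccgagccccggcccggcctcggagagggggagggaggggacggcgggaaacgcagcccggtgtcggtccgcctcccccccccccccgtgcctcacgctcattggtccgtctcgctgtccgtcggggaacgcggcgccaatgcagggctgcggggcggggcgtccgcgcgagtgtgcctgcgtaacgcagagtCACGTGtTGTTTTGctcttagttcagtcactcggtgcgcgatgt
The G6pc window holds TGTTTTG once, beginning 174 bases before the start, and none of the other motifs. In the Pck1 window the reverse complement of TGACG begins 90 bases before the start. Irs2 has an E-box beginning 44 bases before its start and TGTTTTG beginning 37 bases before it. Of all 32851 windows of this length, 5.56% held TGTTTTG, 3.17% TGTTTAC, 17.8% TGACG and 6.02% CACGTG. Of the members whose windows are not printed, Ppargc1a had the reverse complement of TGACG beginning 49 bases before its start. Pfkfb3, over 2 starts, had TGACG 3 times (beginning 112 and 62 bases before one start and 6 before the other) and an E-box beginning 53 bases before that other start. The windows of Fbp1, Slc2a2 and Pklr, both starts of Pklr included, held none of the 4 motifs. These matches describe letters in the windows, and no binding was measured.

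Pck1, the cytosolic enzyme that turns oxaloacetate into phosphoenolpyruvate, has 3 probe sets, and the brightest represents it. On KO day 2 arrays it read 3681, 6894 and 6176.5, against 8437 and 16726 on KO day 0 arrays. The 2 day 0 arrays of KO thus differed about as much from each other as from day 2, and the difference was not called (-1.14 ± 0.34, adjusted p 0.0641). In WT it read 2351, 2119.8 and 3038 at day 2, against 4935 and 9026 at day 0. Pck1 fell 2.69-fold in WT (-1.43 ± 0.34, adjusted p 0.0183). That call was lost without WT day 0 replicate 2 (-0.99, adjusted p 0.198), without WT day 2 replicate 2 (-1.31, adjusted p 0.0572), or without the trend and robust options of the test (adjusted p 0.0607).

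At day 2 all KO arrays lay above all WT arrays for Pck1, which was 2.17-fold higher in KO (1.12 ± 0.31, adjusted p 0.0429; 1.32 and 0.0471 after quantile normalization). The call was kept without KO day 2 replicate 1 (1.39, adjusted p 0.0316) and lost without each of the other 5 day 2 arrays (0.94 to 1.27, adjusted p 0.0682 to 0.146). At day 0 the genotypes overlapped (0.83 ± 0.37, adjusted p 0.604), and the day 1 pools were nearly equal, with 4501 in KO and 4471 in WT. The other probe sets of Pck1 differed from the first and from each other. The s-type set, which may read more than 1 transcript, gave 0.52 ± 0.32 between KO and WT at day 2 (adjusted p 0.319 over all probe sets). The dimmest one, at 394.5, 425.4 and 430.9 in KO against 181.2, 192.4 and 163.1 in WT, gave 1.15 ± 0.25 (adjusted p 0.0193), and unlike the other sets it was not lower at day 2 than at day 0 in KO (0.35 ± 0.28, adjusted p 0.528).

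Fbp1, fructose bisphosphatase, fell to about the same level in both genotypes within a day. It read 18116, 17815 and 18715 on KO day 2 arrays, against 43041 and 34729 on KO day 0 arrays. On WT arrays it read 19531.5, 18780.1 and 20474 at day 2, against 33276 and 34092 at day 0. The groups were far apart in both genotypes, and the day 1 pools, at 18399 in KO and 19269.7 in WT, already stood at the day 2 level. The fall was 2.12-fold in KO (-1.09 ± 0.12, adjusted p 0.000153; -0.76 after quantile normalization) and 1.72-fold in WT (-0.78 ± 0.12, adjusted p 0.00102; -1.06 after quantile normalization). Both calls were kept in all 18 alternatives. Which genotype fell further depended on the scaling: the difference of changes was -0.30 ± 0.17 as deposited (adjusted p 0.318) and 0.30 after quantile normalization (adjusted p 0.164). Likewise KO minus WT at day 2 was -0.10 ± 0.10 as deposited (adjusted p 0.538), and 0.28 after quantile (adjusted p 0.0338) and 0.36 after cyclic loess normalization (adjusted p 0.0125).

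Slc2a2 encodes GLUT2, the transporter through which hepatocytes exchange glucose with blood. On KO arrays it read 4576, 3769 and 3243 at day 2, against 6851.5 and 5657 at day 0. The KO arrays of the 2 days did not overlap, but the drop was 1.63-fold and not called (-0.70 ± 0.22, adjusted p 0.0693). On WT arrays it read 2276, 2184 and 3581.5 at day 2, against 8737 and 10471 at day 0. It fell 3.65-fold in WT (-1.87 ± 0.22, adjusted p 0.000175), a call kept in all 18 alternatives. Before TCPOBOP both KO arrays were below both WT arrays (-0.62 ± 0.24, adjusted p 0.512), and the day 1 pools read 3428 (KO) and 3792 (WT). The difference between the changes was 1.17 ± 0.31 as deposited and missed the threshold (adjusted p 0.0607). It was called after quantile (1.48, adjusted p 0.0304) and cyclic loess normalization (1.42, adjusted p 0.0339), as was KO minus WT at day 2 (0.74 and 0.75, adjusted p 0.0315 and 0.0292; 0.55 ± 0.19 as deposited, adjusted p 0.0945). Leaving out WT day 2 replicate 3 also called both (1.39, adjusted p 0.0361, and 0.77, adjusted p 0.0325).

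Pklr, the pyruvate kinase of liver and red cells that ends glycolysis, has 3 probe sets. The brightest read 2498.5, 1885 and 2093 on KO day 2 arrays, against 2741 and 3990.3 on KO day 0 arrays. WT gave 1612, 2019.6 and 2119 at day 2, against 2686 and 2952 at day 0. Day 2 lay below day 0 in both genotypes without overlap, with differences of -0.62 ± 0.19 in KO (adjusted p 0.0625) and -0.56 ± 0.19 in WT (adjusted p 0.0711), neither of them called as deposited. The KO fall was called without KO day 0 replicate 1 (-0.89, adjusted p 0.0203) and with each array centred on its median (-0.69, adjusted p 0.0425). The WT fall was called after quantile normalization (-0.66, adjusted p 0.0483), after cyclic loess normalization (adjusted p 0.0487), with array weights (adjusted p 0.049) and with only the arrays compared (adjusted p 0.0434). On the next brightest set the WT days overlapped (-0.18 ± 0.19, adjusted p 0.588 over all probe sets), and KO gave -0.57 ± 0.19 (adjusted p 0.0915). The dimmest set gave -1.59 ± 0.52 in KO (adjusted p 0.0926) and -1.14 ± 0.52 in WT (adjusted p 0.19). In KO, replicate 2 of day 0 was the highest of all 12 arrays on each of the 3 Pklr probe sets, at 3507, 3990.3 and 2959.9.

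Pfkfb3, an inducible enzyme that raises fructose bisphosphate and with it glycolytic flux, was dim. Its brighter probe set exceeded the array median on 2 of 12 arrays. It read 249.4, 304.5 and 217 on KO day 2 arrays, against 133.6 and 135.7 on KO day 0 arrays. On WT arrays it read 229, 233.2 and 71.7 at day 2, against 124.4 and 32.8 at day 0. KO was higher at day 2 without overlap while WT overlapped, and neither difference was called (0.85 ± 0.62, adjusted p 0.461, and 1.08 ± 0.62, adjusted p 0.29). The second probe set of Pfkfb3, between 41 and 259.1, exceeded the median on 1 array and was not tested.

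Of the regulators, Irs2, the adaptor that carries the insulin signal from its receptor in hepatocytes, has 1 probe set. It read 387, 331.3 and 231 on KO day 2 arrays, against 945 and 671.2 on KO day 0 arrays. Irs2 fell 2.49-fold in KO (-1.32 ± 0.28, adjusted p 0.0133), and the call was lost without KO day 0 replicate 1 (-1.08, adjusted p 0.101). On WT arrays it read 287.4, 392.4 and 425.5 at day 2, against 584 and 547.6 at day 0, lower on every array but not called (-0.62 ± 0.28, adjusted p 0.19). The day 1 pools diverged, with 419.6 in KO and 134 in WT, the latter below its array's median of 248. This log2 difference of 1.54 was the only one past 2-fold among the 8 members between the pools, where 4.08% of all genes were more than 2-fold higher in KO.

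Ppargc1a, whose product PGC-1 alpha co-activates gluconeogenic genes, has 5 probe sets, of which 3 were bright enough to test. The brightest read 378.1, 568.4 and 522.9 on KO day 2 arrays and 496.6 and 531 on KO day 0 arrays, and 500.1, 622.3 and 271.5 on WT day 2 arrays and 466 and 547.8 on WT day 0 arrays. All 4 groups overlapped, and its differences were small against their errors (-0.09 ± 0.32 in KO and -0.19 ± 0.32 in WT between the days, adjusted p 0.916 and 0.74). The next brightest set lay lower at day 2 on every array of each genotype, at 276.8 to 379.6 against 463.1 and 483.9 in KO and at 222.6 to 289.7 against 382.1 and 427.4 in WT. Neither drop was called (-0.54 ± 0.27, adjusted p 0.281, and -0.65 ± 0.27, adjusted p 0.145, over all probe sets). The dimmest tested set differed by -0.24 ± 0.36 in KO and -0.42 ± 0.36 in WT (adjusted p 0.774 and 0.512 over all probe sets). The remaining 2 never exceeded the median of an array and are not compared.

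**Figure D2:**
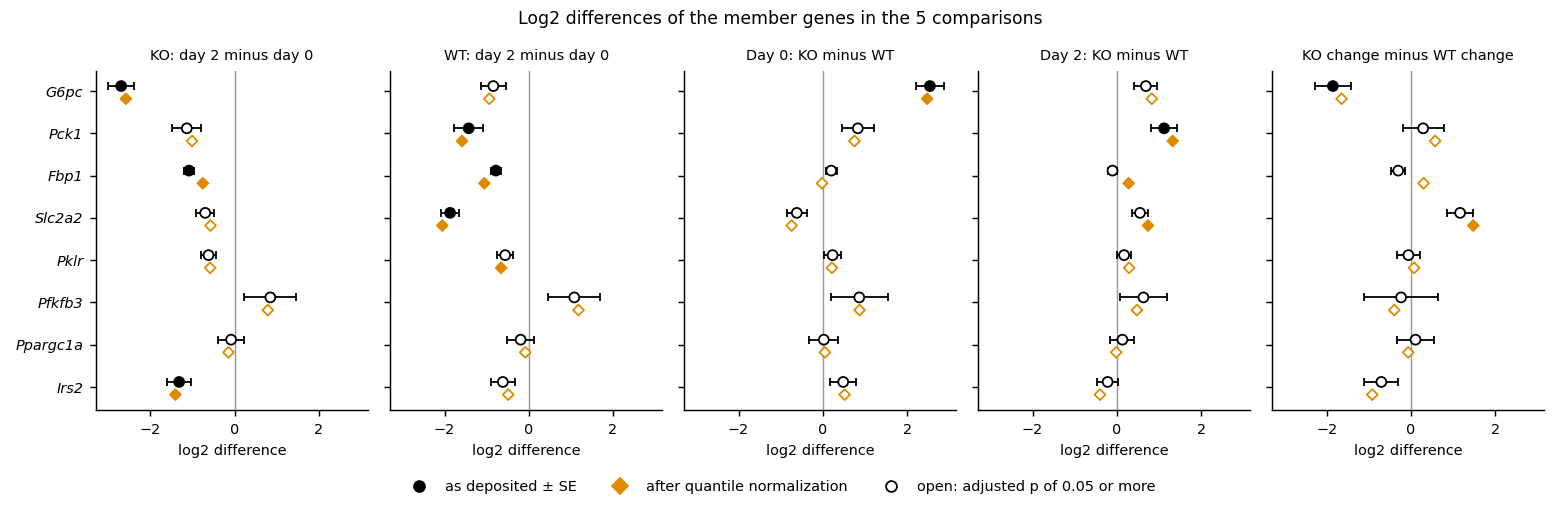
Log2 differences (horizontal axes) of the 8 measured members in the 5 comparisons, as deposited with limma standard errors (circles) and after quantile normalization (diamonds). Filled symbols have an adjusted p under 0.05: as deposited these are 3 members in each day 2 comparison with day 0, and 1 in each of the other 3 comparisons.

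Counted together, 3 of 8 members fell in KO between day 0 and day 2 (G6pc, Fbp1 and Irs2), where 4.49% of all genes fell, and none rose, where 4.2% did. In WT 3 of 8 fell (Pck1, Fbp1 and Slc2a2), where 5.38% of all genes fell, and none rose, where 7.26% did. Arrays did not overlap and were lower at day 2 for 6 of 8 members in KO, where 17.8% of all genes did so, and for 6 of 8 in WT, where 25.9% did. Pfkfb3 alone was higher without overlap in KO, against 22.6% of all genes. KO day 0 arrays lay above WT day 0 arrays for 4 of 8 members (16.6% of all genes) and below for 1 (19%), and at day 2 for 1 (20.1%) and 1 (16.1%). The median difference was -0.89 in KO and -0.70 in WT, with medians over all genes of 0.05 and -0.11. Between the genotypes 1 of 8 members was higher in KO at day 0 (G6pc), where 0.0638% of all genes were called higher, and 1 of 8 at day 2 (Pck1), where 3.99% were. G6pc was also the 1 member whose KO change was called lower than its WT change, against 2.06% of all genes. Fbp1 alone was thus called between the days in both genotypes, and G6pc, Irs2, Pck1 and Slc2a2 in 1 genotype each. Only for G6pc was the difference of the changes itself called as deposited.

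The day 1 pools, with 1 array each and no test, already held part of the day 2 differences. In KO 3 of 8 members were more than 2-fold below the day 0 mean, G6pc (-1.79), Pck1 (-1.40) and Fbp1 (-1.07), where 6.74% of all genes were. In WT 2 were, Irs2 (-1.96) and Slc2a2 (-1.33), where 6.96% of all genes were, and Pfkfb3 was more than 2-fold above (1.12). At 6.35%, genes that far above were about as common. G6pc was not lower in the WT pool, which lay above both WT day 0 arrays (0.78). From day 1 to day 2 the log2 difference of G6pc was -0.90 in KO and -1.62 in WT, where 3.8% of all genes were more than 2-fold lower. Irs2 in WT stood 1.34 higher at day 2 than in the day 1 pool, where 4.37% of all genes were more than 2-fold higher. Both WT differences of Irs2 rest on 1 pool reading of 134, below that array's median of 248.

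The other genes of the pathway were read from lists chosen beside the members. Their counts between day 0 and day 2 stand against 4.49% of all genes called lower and 4.2% higher in KO, and 5.38% lower and 7.26% higher in WT. Of 16 tested genes of glucose production and output, 7 fell in KO and none rose, and in WT 5 fell and 1 rose. The medians were -0.56 and -0.49. After quantile normalization 7 fell and 1 rose in KO, and 8 fell and 1 rose in WT. Got1, the cytosolic aminotransferase that moves oxaloacetate carbon, fell 5.08-fold in KO (-2.34 ± 0.21, adjusted p 4.82e-05) and 2.65-fold in WT (-1.41 ± 0.21, adjusted p 0.00111). Pcx, pyruvate carboxylase and the entry of pyruvate into gluconeogenesis, fell 1.69-fold in KO (-0.76 ± 0.13) and 1.55-fold in WT (-0.63 ± 0.13). Gpd1 (-1.41 ± 0.20 in KO and -1.12 ± 0.20 in WT), the mitochondrial pyruvate carrier Mpc1 (-0.59 ± 0.17 and -0.72 ± 0.17) and tyrosine aminotransferase, Tat (-0.85 ± 0.15 and -0.53 ± 0.15), fell in both as well. For Pcx and Tat the genotype that fell further depended on the scaling. After quantile normalization Pcx was -0.64 in KO and -0.78 in WT, and Tat was -0.60 and -0.77. The calcium-regulated carrier Slc25a25 fell 5.81-fold in KO (-2.54 ± 0.35). In WT it was lower without overlap but not called (-1.08 ± 0.35, adjusted p 0.0669). Lactate dehydrogenase A, Ldha, fell 2.76-fold in KO (-1.47 ± 0.24). Ldha was -0.58 ± 0.24 in WT, called there only after quantile normalization (-0.80, adjusted p 0.0145). For no gene of this list was the difference between the KO change and the WT change called. The alanine aminotransferase Gpt rose in WT (0.67 ± 0.14). In KO it was 0.46 ± 0.14 and called only after quantile normalization (0.63, adjusted p 0.00509). Between the genotypes at day 2, 3 of the 16 were called lower in KO and none higher. They were Ldha (-0.875 ± 0.21), Mdh1 (-0.75 ± 0.17) and Slc25a25 (-1.13 ± 0.32), and 12 of the 16 had differences below 0. After quantile normalization these 3 stayed called (-0.62, -0.44 and -1.19), and 1 gene of the list was called higher.

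Of 20 tested glycolysis genes, 2 rose in KO and 4 in WT and none fell in either as deposited, with medians of 0.17 and 0.19. After quantile normalization 4 rose and 1 fell in KO, and 3 rose and 1 fell in WT. Tpi1, triose phosphate isomerase, rose by 0.57 ± 0.12 in KO and 0.68 ± 0.12 in WT, and Pdha1, a subunit of pyruvate dehydrogenase, by 0.56 ± 0.13 and 0.54 ± 0.13. After quantile normalization Tpi1 was 0.77 in KO and 0.42 in WT, so which genotype rose further depended on the scaling. The fructose kinase Khk (0.69 ± 0.13) and the lactate and pyruvate transporter Slc16a1 (0.57 ± 0.14) rose in WT. For Khk the genotype with the call depended on the scaling: after quantile normalization it was called in KO (0.59, adjusted p 0.0203; 0.41 ± 0.13 as deposited) and not in WT (0.44, adjusted p 0.06). Slc16a1 in KO was -0.46 ± 0.14 and called lower only after quantile normalization (-0.47, adjusted p 0.0495), and its KO change was below its WT change (-1.03 ± 0.20, adjusted p 0.0221). Quantile normalization also called the kinase Pgk1 higher in KO (1.09, adjusted p 0.00296) and the muscle-type phosphofructokinase Pfkm lower in WT (-0.53, adjusted p 0.0385). Khk and Slc16a1 were lower in KO than in WT at day 2 (-0.45 ± 0.11 and -0.52 ± 0.13), a difference that for Khk was -0.15 after quantile normalization (adjusted p 0.482). Pfkfb2 and Pfkfb4, relatives of Pfkfb3, were not called in KO (0.57 ± 0.27 and 0.44 ± 0.21) or in WT (-0.72 ± 0.27 and 0.54 ± 0.21).

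Of 12 tested glycogen genes none was called in KO as deposited, and in WT 2 were higher and 2 lower. After quantile normalization 1 was higher and 1 lower in KO, with 2 and 2 in WT. Gys2, liver glycogen synthase, fell 3.11-fold in WT (-1.64 ± 0.30) and Ppp1r3c, which brings a phosphatase to glycogen, 3.94-fold (-1.98 ± 0.39). Pygl, liver glycogen phosphorylase, rose 1.67-fold (0.74 ± 0.14), and Pgm2, a phosphoglucomutase, rose 2.35-fold (1.23 ± 0.32). In KO, Pygl was 0.47 ± 0.14 (adjusted p 0.0584; 0.67 and 0.00918 after quantile normalization) and Ppp1r3c -1.32 ± 0.39 (adjusted p 0.056; -1.42 and 0.0416 after quantile normalization). For no gene of this list was the difference between the KO change and the WT change called.

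Among 23 tested regulators of glucose production, 3 fell and 2 rose in KO, and 6 fell and 1 rose in WT, the same counts as after quantile normalization. Cebpa, a hepatocyte transcription factor that drives Pck1, fell in both (-0.89 ± 0.15 in KO and -0.97 ± 0.15 in WT). The glucagon receptor Gcgr (-0.69 ± 0.18) and the glucocorticoid receptor Nr3c1 (-0.53 ± 0.14) fell in KO. Foxo1, the insulin-excluded activator of G6pc, fell in WT (-0.74 ± 0.18), as did the insulin receptor Insr (-0.75 ± 0.14) and Klf15 (-0.91 ± 0.19). Nr0b2 (-0.90 ± 0.19) and Ppargc1b (-2.47 ± 0.48), a relative of Ppargc1a, fell in WT too. At day 2 Foxo1 was 1.52-fold higher in KO than in WT (0.61 ± 0.16, adjusted p 0.0366), and Akt2, a kinase of the insulin signal, was lower (-0.65 ± 0.12). Kat2a, an acetyltransferase that acts on PGC-1 alpha, rose 2.30-fold in KO and 2.74-fold in WT, and Trib3, an inhibitor of Akt kinases, rose in KO (1.07 ± 0.18).

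**Figure D3:**
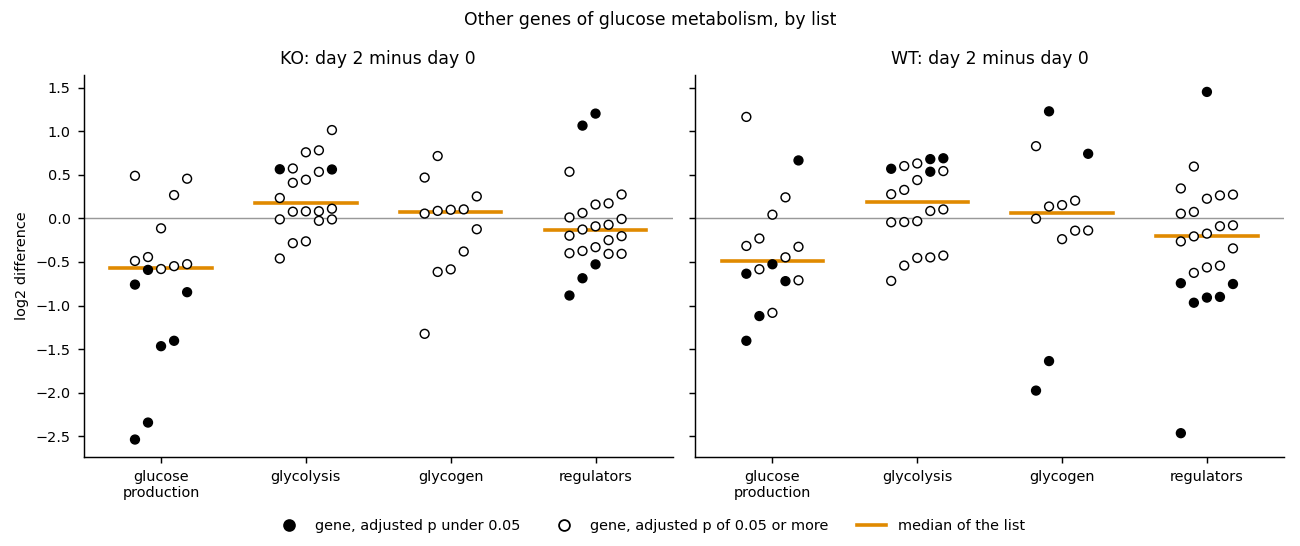
Log2 differences between day 2 and day 0 (vertical axis) of the other genes of glucose metabolism in KO (left) and WT (right), by list, with 16, 20, 12 and 23 genes. Filled points have an adjusted p under 0.05 and the bar is the list's median: glucose production genes centre on -0.56 in KO and -0.49 in WT, glycolysis genes on 0.17 and 0.19.

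Some genes of the fasting and clock lists also differed between the genotypes at day 0. Of 21 tested insulin-repressed and fasting genes, 2 were called higher in KO at day 0 and none lower, where 0.0638% and 0.106% of all genes were, with a median of 0.24, and the median over all genes was -0.03. KO arrays lay above WT arrays without overlap for 7 of the 21, where 16.6% of all genes did so, and below for 4, where 19% did. Igfbp1, a FOXO1 target that binds insulin-like growth factors, stood at 18268 and 8793 on KO arrays and at 1188 and 2555 on WT arrays (2.85 ± 0.38, adjusted p 0.0196). Tsc22d3, a glucocorticoid-induced gene, stood at 2973 and 4247 on KO arrays and at 1285 and 1233 on WT arrays (1.49 ± 0.24, adjusted p 0.033). The 4 below were Bcl6 (-1.66 ± 0.43), Cpt1a (-0.57 ± 0.17), which carries fatty acids into mitochondria, Lpin2 (-0.40 ± 0.17) and the glucocorticoid-induced Fkbp5 (-0.29 ± 0.17), none of them called. Genes of the list thus lay on both sides, the lower ones at about the share of all genes. Among 16 tested clock genes, 3 were lower in KO at day 0, where 0.106% of all genes were, and none higher. Dbp, a clock output factor with a steep daily rhythm, stood at 341.1 and 582 on KO arrays and at 2529.8 and 4319 on WT arrays (-2.85 ± 0.32, adjusted p 0.0117). Nr1d2 (-1.42 ± 0.23, adjusted p 0.0365) and Tef (-1.22 ± 0.19, adjusted p 0.033) were lower on both KO arrays as well.

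Dbp and Nr1d2 were also low in both day 1 pools, where Dbp read 470.7 in KO and 582.7 in WT, and Dbp stood at 3208 to 3353 in KO and 1809 to 3579 in WT at day 2. Tef in the WT day 1 pool, at 2996, lay within the WT day 2 arrays. The 3 groups with the lowest Dbp, the single day 1 pools among them, were those with the highest mean G6pc. Not all clock genes of the list shared this order. Bhlhe40 read 414.1 and 779.8 on KO day 0 arrays, but 2998.6 in the KO day 1 pool and 3460.9 in the WT day 1 pool. The labels give no hour of death and no feeding state, and the part of either in the G6pc difference was not tested. Of 16 tested feeding- and insulin-induced genes none was called between the genotypes at day 0, with a median of 0.02. Over all genes only 0.0638% were called higher and 0.106% lower, so a list of this size could hardly show a call. Without overlap 2 of the 16 lay higher in KO, where 16.6% of all genes did, and 4 lower, where 19% did.

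**Figure D4:**
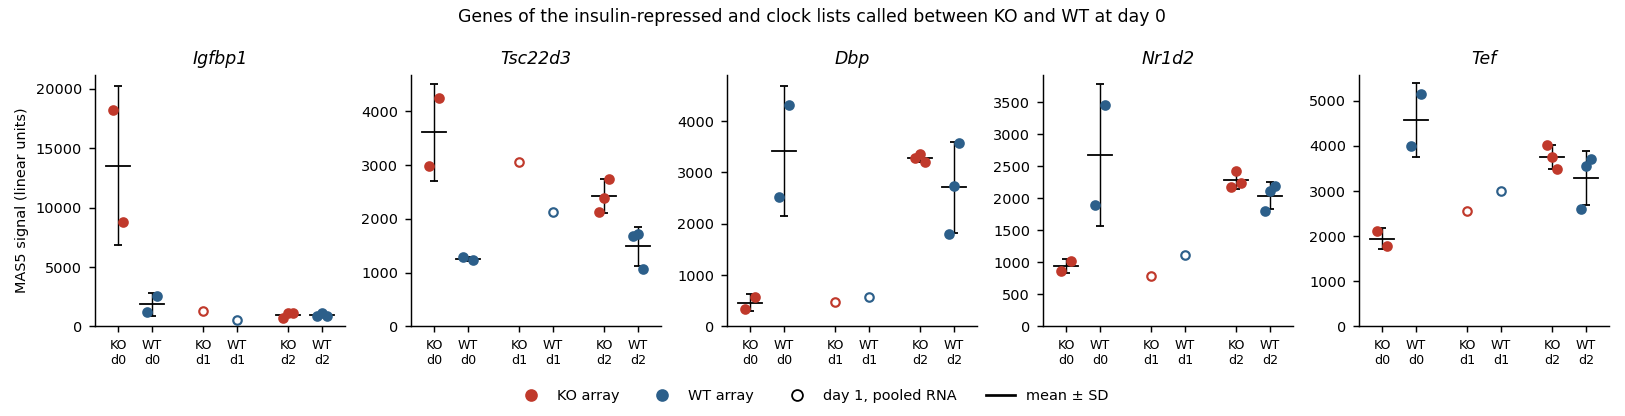
MAS5 signal in linear units (vertical axes from 0) of the 5 genes of the insulin-repressed and clock lists that were called between KO and WT at day 0, by genotype and day. Filled points are arrays, open points the day 1 pools and bars mean ± SD: Dbp reads 341.1 to 582.7 on the KO day 0 arrays and both day 1 pools, and 1809 or more on the others.

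Whole liver was measured, so fewer cells of a type and less RNA per cell cannot be told apart. The 8 tested of 10 hepatocyte markers summed to 262400 to 329700 units on KO day 2 arrays, against 443300 to 535700 on KO day 0 arrays, and to 437000 to 505800 on WT day 2 arrays, against 378300 to 397700 on WT day 0 arrays. In KO these sums moved down with G6pc and Fbp1, on the arrays whose signal range was narrower, and in WT they moved up while Fbp1, Pck1 and Slc2a2 fell. In WT 3 of the 8 hepatocyte markers had log2 differences below 0. The cre spike-in control, which in KO may also read RNA of the virus's Cre, moved the same way as these sums in both genotypes. All 8 Kupffer cell markers summed to 11390 to 11510 in KO and 13370 to 14130 in WT at day 0, and to 8778 to 12360 and 11820 to 12260 at day 2. Stellate cell markers, 7 of 8 tested, were at 8769 to 9751 on KO day 2 arrays, against 10440 to 14720 on KO day 0 arrays, and at 8051 to 8503 on WT day 2 arrays, against 10080 to 10980 on WT day 0 arrays. Sums weigh the brightest genes most, and in KO 3 of these 7 were higher at day 2 without overlap and 3 lower. Lymphocyte markers, 6 of 7 tested, were at 4385 to 5056 on KO day 2 arrays, against 3149 to 3949 on KO day 0 arrays, and overlapped in WT, at 2843 to 4352 at day 2, against 3973 to 4033 at day 0. In KO 3 of these 6 lymphocyte markers had log2 differences below 0. All 8 endothelial markers summed to 9647 to 11610 on KO day 2 arrays, against 9795 to 12410 on KO day 0 arrays, and without overlap to 8427 to 9427 on WT day 2 arrays, against 10770 to 11430 on WT day 0 arrays. The part of these shifts in the members' results was not tested.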

How the data were processed

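The 12 arrays were single-colour Affymetrix arrays of biotin-labelled RNA. The authors deposited MAS5 signal intensities, per the submitters' processing notes; the version is not given in the sources used here. Each array's trimmed mean is 500, which shows a common scaling target. The number of arrays, not a read depth, limits the precision.

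No further normalization was applied before taking log2(signal + 16). Of 45101 probe sets, 34945 name 1 gene. Those that exceeded the median of the array on 2 or more arrays were kept, and the kept set with the highest mean stands for a gene, which left 14102 genes. Of the members' 17 probe sets 14 were kept. One limma fit (3.58.1, R 4.3.3) of 6 group means to 12 arrays, with eBayes trend and robust options and 6 residual degrees of freedom, gave the 5 comparisons, with two-sided tests and Benjamini-Hochberg adjustment over all genes. The fit was tested on simulated data.

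The members and lists were chosen with earlier results of these data known. All members are named. From the lists, up to 6 called genes with the largest differences per comparison, and those that complete a count of 5 or fewer, could be named; genes named beyond this, Pfkfb2, Pfkfb4, Pgk1, Pfkm, Bcl6, Cpt1a, Lpin2 and Fkbp5 at day 0, were chosen after their values were seen. Alternatives were other normalizations, pseudocounts, filters, probe set rules, test options, thresholds, the replicate number as a block and leaving out each array. Promoter windows come from RefSeq (GRCm38.p6). Python 3.11.15 (with pandas 2.3.3) and matplotlib 3.10.9 produced the tables and plots.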

Additional observations from a re-analysis of the deposited data

Results flagged for a closer look

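The change of G6pc from day 0 to day 2 differed between the genotypes by the test of that difference itself: KO change minus WT change was -1.85 ± 0.43 on the log2 scale (limma, adjusted p 0.0418), with -2.70 in KO and -0.84 in WT. All KO day 2 arrays were below both KO day 0 arrays, and all WT day 2 arrays below both WT day 0 arrays. The call held in 8 of 23 alternatives, and the difference kept its sign in all 23. No group has more than 3 arrays, so no array was tested as standing apart from its group.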

How the results depend on the processing

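Of 755 member results under the alternatives, 671 kept their direction and side of the threshold, 33 lost a call, 18 gained one and 33 changed sign. The falls of G6pc and Fbp1 in KO and of Fbp1 and Slc2a2 in WT kept their calls in all 18. Arrays cannot resolve genes near background, such as Pfkfb3. Causes were not tested, except that a tighter threshold calls fewer genes by construction.

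Quantile normalization called 3 members at day 2 between KO and WT and 287 genes for the difference of changes. It turned Fbp1 (0.28) and Ppargc1a (-0.017) at day 2, Fbp1 at day 0 (-0.021), and the differences of changes of Fbp1 (0.30), Pklr (0.074) and Ppargc1a (-0.066). Cyclic loess called 5 members in WT and 3 at day 2, and turned Fbp1 (0.36) and Ppargc1a (-0.058) at day 2 and the differences of changes of Fbp1 (0.34), Pklr (0.063) and Ppargc1a (-0.12). Centring on the array median called 5 members in KO and 0 at day 2, and turned Pklr (-0.0026) and Ppargc1a (-0.043) at day 2 and Ppargc1a's difference of changes (-0.080). It shifted the median of all genes by 0.12 in WT, -0.17 at day 2 and -0.19 for the difference of changes. The share of calls that were higher became 76.1% in WT (57.5% as deposited), 14.6% at day 2 (43.3%) and 14.02% for the difference of changes (34.5%, and 44.6% after quantile normalization).

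With no filter, 0 members were called at day 2 and for the difference of changes, and 9 genes at day 0 and 275 for the difference of changes. The mean over probe sets called 0 members for the difference of changes. Without trend and robust options 0 members were called at day 2, at day 0 and for the difference of changes, with 748, 0 and 76 genes. Only the arrays compared gave 801 genes in KO and 0 members and 0 genes at day 0. Array weights gave 0 members and 4 genes at day 0 and 0 members for the difference of changes. At an adjusted p under 0.01, 568 genes were called in KO, 861 in WT, 272 at day 2, 0 at day 0 and 34 for the difference of changes, with 0 members in the last 3. Under 0.1, the members called were 6 in KO, 5 in WT, 2 at day 2 and 2 for the difference of changes, and the genes 1840 in KO, 2448 at day 2, 50 at day 0 and 1055 for the difference of changes.

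Deviations of same-numbered KO and WT arrays had r of -0.015 at day 0 and 0.034, 0.026 and 0.0041 at day 2. With 2 arrays a group at day 0 and 3 at day 2, such values are tied to each other. At day 0 arrays of unlike number gave 0.015, the same size with the sign turned. The values therefore cannot decide whether the numbers pair the arrays. With the replicate number as a block, 8 genes were called at day 0 and 282 for the difference of changes. Pck1 in KO (-1.26, limma adjusted p 0.0114) and G6pc in WT (-1.04, limma adjusted p 0.0287) became called, and Ppargc1a in KO turned to 0.052.

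Leaving out each array in turn gave 3 to 4 members in KO, 2 to 4 in WT, and 0 to 1 at day 2, at day 0 and for the difference of changes. All genes called ran from 777 (without KO day 2 replicate 2) to 1253 in KO, 880 to 1458 in WT, 408 to 979 at day 2, 7 to 134 at day 0 (the highest without KO day 0 replicate 1) and 57 to 698 for the difference of changes. Signs turned within these ranges: Ppargc1a in KO (-0.20 to 0.084), in WT (-0.44 to 0.14), at day 2 (-0.20 to 0.37) and at day 0 (-0.091 to 0.14), Pklr at day 0 (-0.039 to 0.50), and the differences of changes of Pck1 (-0.20 to 0.78), Pfkfb3 (-0.997 to 0.53), Pklr (-0.33 to 0.21) and Ppargc1a (-0.23 to 0.35).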

Other observations

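Across the 12 arrays, which share 6 groups and so are not independent points, the tested genes whose log2 signals followed a member most closely were mostly outside glucose metabolism. For Fbp1 they were the adiponectin receptor Adipor2 (Pearson r 0.986), urate oxidase, Uox (0.982), Klf9 (0.979), Igf1 (0.978) and Col18a1 (0.978). Like Fbp1, Uox was lower at day 2 in both genotypes, at 15708 to 17326 in KO against 42029 and 38056 at KO day 0, and at 15884 to 19137 in WT against 35325 and 42564 at WT day 0. For Pck1 the list was led by Ifna2 (0.946) and Lpin1 (0.946), a fasting-induced phosphatase of lipid synthesis. Slc2a2 was followed by Robo4 (0.953) and Klb (0.950), the co-receptor for the fasting hormone FGF21. For Pklr the closest were Acss2 (0.944) and Fads2 (0.923), both genes of fat synthesis. G6pc was followed less closely, with Igbp1 (0.911), which is not Igfbp1, Ecm1 (0.907) and the clotting factor F12 (0.905).

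Between members the highest correlations over the same arrays were those of Fbp1 with Slc2a2 (0.808) and Irs2 (0.776), of G6pc with Pck1 (0.771) and of Pck1 with Pklr (0.768). Pfkfb3 ran against most of them, down to -0.67 with Slc2a2. Ppargc1a, whose product co-activates G6pc and Pck1, had r of -0.06 with G6pc and 0.28 with Pck1 by its brightest probe set.

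Outside glucose metabolism, Pnpla3, a lipid droplet gene that insulin induces, read 1313, 1042.6 and 1523 at KO day 2 against 396.9 and 491.7 at KO day 0, and 513.7, 717.3 and 823.2 at WT day 2 against 605.7 and 783.4 at WT day 0. It rose 2.83-fold in KO (limma adjusted p 0.00178), and its KO change was above its WT change (1.53 ± 0.32, adjusted p 0.031). Acly, which supplies acetyl units for fat synthesis, fell in both (-1.09 ± 0.23 in KO and -1.61 ± 0.23 in WT). Both belong to a feeding-induced list of which 1 rose and 2 fell of 16 in each genotype as deposited. In KO Pnpla3 rose and Acly and Scd1 fell, where 4.2% of all genes rose and 4.49% fell. In WT Me1 rose and Acly and Srebf1 fell, where 7.26% of all genes rose and 5.38% fell. After quantile normalization 3 rose and 2 fell in KO, and 1 rose and 4 fell in WT.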
